A study of Mus musculus with 12 samples.

Results

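The genes described here are 10 regulators of the cell cycle in murine erythroblasts: the cyclins Ccnd2, Ccnd3, Ccne1, Ccna2 and Ccnb1, the inhibitors of cyclin-dependent kinases (CDKs) Cdkn1b, Cdkn2c and Cdkn2d, and the transcription factor genes E2f2 and Myc. They were chosen by symbol, 10 of the 56748 genes in the count table, and their splicing events were taken by gene name from an event table. All 10 passed the filter on low counts. The cells were G1E-ER4, a mouse erythroid progenitor line without GATA1 of its own that carries a GATA1-estrogen receptor fusion, so that estradiol switches on GATA1 and with it red cell maturation. Poly(A) RNA was sequenced from 3 libraries of Sf3b1 K700E/+ cells and 3 libraries of Sf3b1 +/+ cells, all after 24 h of β-estradiol, while libraries taken without estradiol were not analysed here. Both genotypes came from the same editing procedure, with Cas9, a guide RNA and a donor template with a hygromycin cassette that flippase later removed, and each is 1 single-cell clone. A difference between the genotypes therefore cannot be told apart from a difference between the clones. Nothing names the culture behind each library, and each p-value here therefore rests on library-to-library spread, which may be technical.

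D-type cyclins with CDK4 or CDK6 start the phosphorylation of the retinoblastoma protein, which frees E2F factors to switch on S-phase genes, among them the E-type cyclins. Cyclin E with CDK2 drives entry into S phase, cyclin A carries cells through it, and cyclin B with CDK1 starts mitosis. INK4 proteins, encoded by Cdkn2 genes, block CDK4 and CDK6, and the CIP/KIP proteins, encoded by Cdkn1 genes, bind cyclin-CDK complexes more widely. MYC pairs with MAX to raise ribosome production, metabolism and growth. During erythroid maturation GATA1 is known to lower Myc and Kit, and the cells go through a few fast divisions before they leave the cycle.

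Between 44045337 and 50077827 reads were counted in a K700E/+ library, and between 38785471 and 40702174 in a +/+ library. In both genotypes replicate 1 differed more from the other 2 replicates (chi-square per degree of freedom 23.9 to 35.8) than those differed from each other (9.77 in K700E/+, 8.07 in +/+). Erythroblast markers were abundant in both genotypes, with sums over 8 genes of 5900 to 8410 CPM (counts scaled to the size of the library) in K700E/+ and 5772 to 7295 CPM in +/+. The 4 early progenitor markers summed to 296 to 314 CPM in K700E/+ and 380 to 441 CPM in +/+, and Kit and Spi1 were called lower. Markers of other lineages were low, with 6 granulocyte and macrophage genes at 0.0234 to 0.0445 CPM in K700E/+ and 4.41 to 11.4 CPM in +/+, and 4 mast cell and basophil genes at 1.02 to 3.45 CPM in K700E/+ and 9.90 to 33.7 CPM in +/+. Of these lists, Lyz2, Prg2 and Cpa3 were called lower, and Elane, S100a8 and Mcpt8 had no read. The 4 megakaryocyte genes summed to 8.70 to 18.3 CPM in K700E/+ and 15.9 to 27.6 CPM in +/+ with none called, and the 4 lymphoid genes were at 0 CPM in K700E/+ and at most 0.0492 CPM in +/+. The part of these differences in the results that follow was not tested. In bulk RNA, fewer cells of a type and less RNA per cell cannot be told apart.

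At 24 h, 4 of the 10 genes were called higher in Sf3b1 K700E/+ cells (Ccnd2, Ccne1, Ccna2 and Myc) and 2 lower (Cdkn2c and Cdkn2d), where a call is an adjusted p under 0.05 in edgeR's quasi-likelihood test. Of all 12547 genes tested, 21.3% were called higher and 23.1% lower, 44.4% in all, so that 6 calls among 10 genes stood near this background. Ccne1 was the 1 differentially expressed gene (DEG) by the added threshold of an absolute log2 fold change over 1, which 10.3% of all genes met, 4.07% as higher and 6.24% as lower. In the 5 genes Ccnd2, Ccne1, Ccna2, Ccnb1 and Myc each K700E/+ library lay above each +/+ library, and in Cdkn2c and Cdkn2d each lay below. This is 7 of 10 genes without overlap, against 54.3% of all genes (26.4% higher and 27.9% lower). The median log2 fold change was 0.17 over the 10 genes and -0.01 over all genes, and the median absolute value was 0.23 over the 10 genes and 0.27 over all genes. Without replicate 1 in both genotypes, a setting chosen after seeing the data, 6 of the 10 genes were called higher and 2 lower, against 25.3% of all genes called higher and 26.9% lower at that setting, 52.2% in all.

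**Figure D1:**
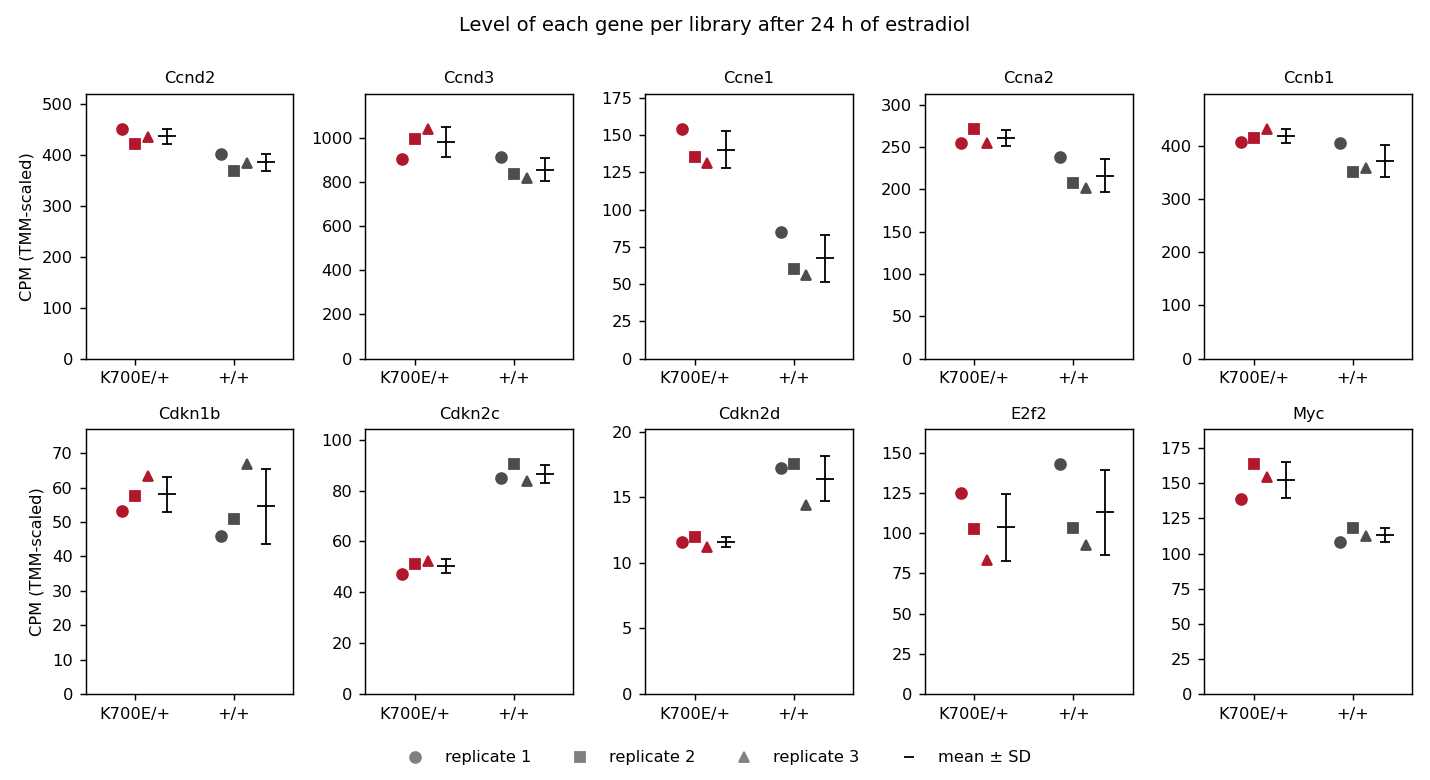
CPM scaled by TMM on a linear axis from 0, for each of the 10 genes, with 1 point per library (K700E/+ on the left, +/+ on the right, symbols by replicate) and the mean ± SD beside the points (n = 3). The K700E/+ points lie above all +/+ points for Ccnd2, Ccne1, Ccna2, Ccnb1 and Myc and below them for Cdkn2c and Cdkn2d.

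**Figure D2:**
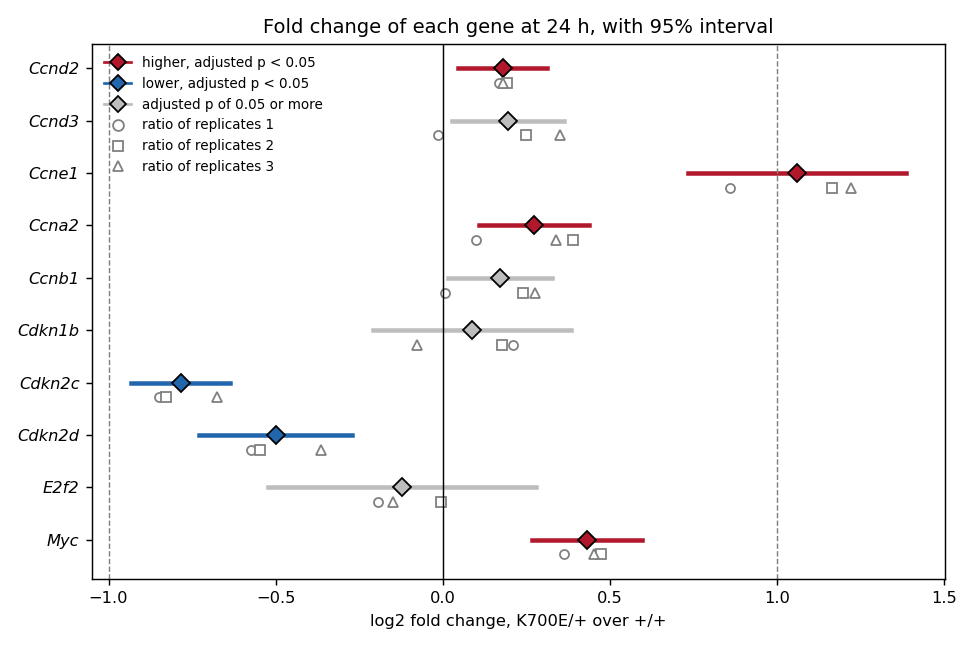
Log2 fold change of K700E/+ over +/+ for each gene (diamonds) with its 95% confidence interval (bars), and below it the log2 ratio of the 2 libraries with the same replicate number (open symbols). Dashed lines mark an absolute log2 fold change of 1, which Ccne1 alone passed, at 1.06.

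RefSeq promoter windows (GRCm38.p6) were found for 7 of the 10 genes, in 10 windows of 250 bases before an annotated start. None was found for Ccnd2, Ccna2 and Myc, which were all called higher, so the counts below do not cover them. They were searched on both strands for the E-box CACGTG, which MYC-MAX binds, for E2F letters (TTCGCGC, besides that TTCCCGC, further TTGGCGC, and lastly TTGCCGC), for GATA letters (AGATAA, or otherwise TGATAA), for the CCAAT box, and for letters of the cell cycle element CHR (TTTGAA, or otherwise TTTAAA). Of 32851 windows in the whole table, 6.02% held an E-box, 7.89% E2F letters, 16.6% GATA letters, 33.8% a CCAAT box and 25.2% CHR letters. Among the 10 windows of these genes, 0 held the E-box or the GATA letters, 2 held E2F letters (Ccnb1 and the distal start of Cdkn2c), 6 a CCAAT box and 4 CHR letters. A match is a description of the letters and not a binding site. The windows of Ccne1 and Cdkn2c are shown because these genes had the largest rise and fall. Those of Ccnb1 and Cdkn1b are shown as examples with several matches. The E2f2 window at chr4:136180532-136180781 also held several and is not printed. Matches are in capitals, and bases that GENCODE M21 places in an exon are left out.
Ccne1, chr7:38107535-38107740, minus strand: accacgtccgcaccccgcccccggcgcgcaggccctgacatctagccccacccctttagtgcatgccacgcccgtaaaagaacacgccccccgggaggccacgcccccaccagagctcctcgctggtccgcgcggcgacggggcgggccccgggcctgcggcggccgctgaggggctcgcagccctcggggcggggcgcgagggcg
Ccnb1, chr13:100786571-100786736, minus strand: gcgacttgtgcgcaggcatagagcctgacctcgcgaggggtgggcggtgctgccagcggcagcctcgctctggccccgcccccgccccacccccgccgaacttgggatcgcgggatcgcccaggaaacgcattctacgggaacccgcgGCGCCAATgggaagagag
Cdkn1b, chr6:134920151-134920400, plus strand: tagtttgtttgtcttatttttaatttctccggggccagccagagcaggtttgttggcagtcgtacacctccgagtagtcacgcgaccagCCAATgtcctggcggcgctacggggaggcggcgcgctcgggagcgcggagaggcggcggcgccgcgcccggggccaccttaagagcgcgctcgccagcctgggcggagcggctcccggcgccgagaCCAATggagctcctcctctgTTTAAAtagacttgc
Cdkn2c, proximal start, chr4:109665373-109665609, minus strand: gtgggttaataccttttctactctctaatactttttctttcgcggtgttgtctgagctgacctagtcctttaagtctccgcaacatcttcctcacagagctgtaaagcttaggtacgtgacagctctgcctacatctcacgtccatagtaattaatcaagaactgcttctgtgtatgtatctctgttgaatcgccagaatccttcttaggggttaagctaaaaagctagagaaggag
In the Ccnb1 window the E2F letters and a CCAAT box overlap, and another CCAAT box and TTTAAA lie in the part not printed. The Ccne1 window held 34 CG dinucleotides in its 250 bases, with TTTAAA starting 15 bases before the RefSeq start, in the part not printed. The proximal Cdkn2c window held 6 CG dinucleotides and none of the letters searched.

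Ccnd2 (ENSMUSG00000000184, chr6:127125162-127152193 in GRCm38, minus strand), a D-type cyclin, had 452, 422 and 436 CPM in K700E/+ libraries, against 402, 370 and 385 CPM in +/+ libraries. The genotypes did not overlap, and the ratio at each replicate number was close to the same, with log2 values of 0.17, 0.19 and 0.18. The log2 fold change was 0.18 ± 0.06 (SE, n = 3 each) with an adjusted p of 0.0343 in edgeR, which is 1.13-fold. The call was lost in 5 of 6 fits that left out 1 library, with adjusted p between 0.0132 and 0.110 over the 6 fits.

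Ccnd3 (ENSMUSG00000034165, chr17:47505051-47599691, plus strand), the D-type cyclin known to set the number of divisions in maturing mouse erythroblasts, had 906, 996 and 1043 CPM in K700E/+ libraries, against 916, 838 and 817 CPM in +/+ libraries. The first K700E/+ library lay below the first +/+ library, so the genotypes overlapped. The log2 fold change of 0.20 ± 0.07 (SE, n = 3 each) had an adjusted p of 0.0574 in edgeR and was not called. With the replicate number as a block the adjusted p was 0.0278, and without replicate 1 in both genotypes it was 0.000701 at a log2 fold change of 0.30. The 3′ end of Ccnd3 overlaps Bysl on the other strand in GENCODE M21, and Bysl, which the count table lists with 4438 to 5129 reads in K700E/+ and 2700 to 3046 reads in +/+, was itself called higher (log2 fold change 0.53, adjusted p = 0.000222). The library kit marks strand, but the strand setting of the counting is not given in the sources used here, so how reads of that overlap were assigned was not tested. The retrocopy Ccnd3-ps had 11 to 25 reads per library.

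Among the partners of these cyclins, Cdk4 was higher and Cdk6 lower. Cdk4 averaged 461 ± 18.2 CPM in K700E/+ and 383 ± 21.6 CPM in +/+ (SD, n = 3 each), with a log2 fold change of 0.27 and an adjusted p of 0.00766. Cdk6 averaged 99.4 ± 4.01 CPM in K700E/+ and 156 ± 18.1 CPM in +/+ (SD, n = 3 each), with a log2 fold change of -0.65 and an adjusted p of 0.000301. Of the list of D-type cyclins with CDK4 and CDK6, 2 of 4 tested genes were thus called higher and 1 lower. Among all genes these shares were 21.3% and 23.1%. Ccnd1 had no read in any of the 6 libraries, a count of 0 that allows a level of up to 0.0116 CPM over all libraries.

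Ccne1 (ENSMUSG00000002068, chr7:38097984-38107534, minus strand), which encodes cyclin E1, rose the most of the 10 genes. It had 155, 135 and 131 CPM in K700E/+ libraries, against 85.2, 60.4 and 56.4 CPM in +/+ libraries. The lowest K700E/+ library stood well above the highest +/+ library, and replicate 1 was the highest within each genotype. Ccne1 had a log2 fold change of 1.06 ± 0.14 (SE, n = 3 each, adjusted p = 0.000372 in edgeR), a 2.09-fold difference with a 95% interval of 1.66 to 2.61. An absolute log2 fold change larger than this was found in 9.57% of the tested genes. Its call held in every fit that left out 1 library, but the log2 fold change was under 1 without K700E/+ replicate 1 (0.99) and without +/+ replicate 3 (0.95), so that it was no DEG there. Ccne2, the other E-type cyclin, was also called higher at 48.1 ± 5.41 CPM in K700E/+ and 36.8 ± 7.06 CPM in +/+ (SD, n = 3 each, log2 fold change 0.39, adjusted p = 0.0444), although its libraries overlapped. This call was lost in 4 of 6 fits that left out 1 library, those without K700E/+ replicate 1 or 3 or +/+ replicate 2 or 3, with adjusted p of up to 0.131.

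Ccna2 (ENSMUSG00000027715, chr3:36564865-36572150, minus strand), the A-type cyclin of dividing somatic cells, had 255, 272 and 255 CPM in K700E/+ libraries, against 238, 208 and 202 CPM in +/+ libraries. The K700E/+ libraries lay close together and above all +/+ libraries. Its log2 fold change was 0.27 ± 0.07 (SE, n = 3 each, adjusted p = 0.0142 in edgeR), and the ratio at replicate number 1 was the smallest (log2 0.10, against 0.39 and 0.34 at numbers 2 and 3). The call was lost without K700E/+ replicate 2 (adjusted p = 0.0595), +/+ replicate 2 (0.0528) or +/+ replicate 3 (0.0594). The annotated Ccna2 and Exosc9 genes overlap, and Exosc9 had 1020 to 1160 reads in K700E/+ and 924 to 931 in +/+ with no call (adjusted p = 0.522). Ccna1 had no read.

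Ccnb1 (ENSMUSG00000041431, chr13:100778650-100786570, minus strand), the mitotic cyclin B1, had 406, 414 and 432 CPM in K700E/+ libraries, against 405, 351 and 357 CPM in +/+ libraries. The genotypes did not overlap, but the first library of each was nearly at the same level. The log2 fold change of 0.17 ± 0.07 (SE, n = 3 each) was not called, with an adjusted p of 0.0714 in edgeR. It was called with the replicate number as a block (adjusted p = 0.0247), without +/+ replicate 1 (log2 fold change 0.24, adjusted p = 0.00591) and without replicate 1 in both genotypes (0.26, adjusted p = 0.00145). Ccnb2, the other B-type cyclin of somatic cells, was called lower, at 137 ± 6.65 CPM in K700E/+ and 160 ± 12.4 CPM in +/+ (SD, n = 3 each, log2 fold change -0.22, adjusted p = 0.0344), and this call was lost in 7 of 11 alternatives: with DESeq2, without a filter on low counts, without replicate 1 in both genotypes, and without K700E/+ replicate 1 or 3 or +/+ replicate 1 or 2. The processed copy Ccnb1-ps had 81 to 100 reads per library, against 14372 to 20369 reads for Ccnb1.

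Both INK4 inhibitors among the 10 genes fell. Cdkn2c (ENSMUSG00000028551, chr4:109660876-109667189, minus strand), which encodes p18INK4c, had 47.1, 50.9 and 52.5 CPM in K700E/+ libraries, against 84.8, 90.5 and 83.9 CPM in +/+ libraries. The 2 genotypes were far apart relative to the spread within each, with coefficients of variation of 5.53% in K700E/+ and 4.15% in +/+. The level was 1.72-fold lower in K700E/+, with a log2 fold change of -0.78 ± 0.07 (SE, n = 3 each, adjusted p = 2.6e-05 in edgeR). Under 11 other settings the log2 fold change stayed between -0.81 and -0.74 and was called each time.

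Cdkn2d (ENSMUSG00000096472, chr9:21288410-21291407, minus strand), which encodes p19INK4d, had 11.6, 12 and 11.2 CPM in K700E/+ libraries, against 17.2, 17.5 and 14.4 CPM in +/+ libraries. The genotypes did not overlap, and replicate 3 of +/+ was nearest to the K700E/+ libraries. Cdkn2d had a log2 fold change of -0.50 ± 0.10 (SE, n = 3 each, adjusted p = 0.00358 in edgeR), 1.41-fold lower, and it rested on 480 to 580 reads per K700E/+ library and 587 to 719 per +/+ library. It too was called under each of the 11 other settings. Cdkn2a and Cdkn2b, the other INK4 genes, had no read in any library.

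Cdkn1b (ENSMUSG00000003031, chr6:134920401-134925513, plus strand), which encodes p27KIP1, had 53.2, 57.4 and 63.3 CPM in K700E/+ libraries, against 46.0, 50.7 and 66.9 CPM in +/+ libraries. The genotypes overlapped, and replicate 3 was the highest in both. The log2 fold change was 0.09 with a 95% interval of -0.21 to 0.38 and an adjusted p of 0.617 in edgeR, an interval that holds no change as well as changes of either sign. Its relative Cdkn1a, which encodes p21CIP1, fell instead, with 116, 124 and 126 CPM in K700E/+ libraries, against 255, 290 and 305 CPM in +/+ libraries (log2 fold change -1.21 ± 0.08, SE, n = 3 each, adjusted p = 5.65e-06). Cdkn1c had no read. Of the 7 genes in the list of CIP/KIP and INK4 inhibitors, 4 were tested, 3 were called lower and none higher. Among all genes 23.1% were called lower and 21.3% higher.

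Enzymes act on the cyclin-CDK complexes themselves. Of 8 tested genes for them, Wee1, whose kinase inhibits CDK1, and Cdc25a, whose phosphatase activates CDKs, were called higher, with log2 fold changes of 0.58 and 0.57. None was called lower, against 21.3% of all genes called higher and 23.1% lower. Of 7 genes for the SCF ubiquitin ligases that degrade p27KIP1 and cyclin E, among them Skp2 and Fbxw7, none was called by edgeR or DESeq2. In edgeR 0 had an unadjusted p under 0.05. With the replicate block, without +/+ replicate 1 or without replicate 1 in both genotypes, 1 was called lower. Of all genes, 26.9% were called lower without replicate 1 in both genotypes, and the shares in the other fits are not given here.

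E2f2 (ENSMUSG00000018983, chr4:136172394-136196057, plus strand), an E2F factor needed for normal red cell maturation in mice, had 125, 103 and 83.5 CPM in K700E/+ libraries, against 143, 103 and 92.5 CPM in +/+ libraries. Replicate 1 was the highest and replicate 3 the lowest in both genotypes, so that the spread within a genotype exceeded the difference between them. For E2f2 the log2 fold change was -0.12 with a 95% interval of -0.52 to 0.28 and an adjusted p of 0.609 in edgeR. With the replicate number as a block the adjusted p was 0.0744. Around it, 5 of 13 tested E2F factors and pocket proteins were called higher and 4 lower, against 21.3% and 23.1% of all genes. E2f6, a repressor E2F that does not bind pocket proteins, was the one DEG, at 135 ± 6.43 CPM in K700E/+ and 59.6 ± 5.50 CPM in +/+ (SD, n = 3 each, log2 fold change 1.18). E2f8, another repressor, had a log2 fold change of 0.71, and Tfdp1, a dimer partner of the E2Fs, of 0.42. Rbl2, which encodes the pocket protein p130 of quiescent cells, had a log2 fold change of -0.69. Of 12 genes known as E2F targets, Cdc6 (log2 fold change 0.79) and Rrm1 (0.42) were called higher and none lower, against 21.3% and 23.1% of all genes. In the fit with the replicate block 7 targets were called higher and 2 lower, and without +/+ replicate 1 it was 9 higher and none lower. With DESeq2 or without a filter on low counts 4 were called higher, and 1 was called lower without K700E/+ replicate 1 or without +/+ replicate 3. Without replicate 1 in both genotypes 8 were called higher and 1 lower, against 25.3% and 26.9% of all genes. The share of all genes called at the other settings is not given here, so those counts have no background beside them.

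Myc (ENSMUSG00000022346, chr15:61985391-61990374, plus strand) rose. It had 139, 164 and 154 CPM in K700E/+ libraries, against 108, 118 and 113 CPM in +/+ libraries. Each K700E/+ library exceeded each +/+ library, and the log2 ratios at the 3 replicate numbers were 0.36, 0.47 and 0.45. Its log2 fold change was 0.43 ± 0.07 (SE, n = 3 each, adjusted p = 0.00127 in edgeR), a 1.35-fold difference with a 95% interval of 1.20 to 1.51. It was called under each of the 11 other settings, with log2 fold changes of 0.38 to 0.50.

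The genes around Myc moved in both directions. Max, its dimer partner, was called higher, at 153 ± 7.17 CPM in K700E/+ and 113 ± 8.19 CPM in +/+ (SD, n = 3 each, log2 fold change 0.44, adjusted p = 0.00088). Mxd4, whose protein competes with MYC for MAX and represses, had 10.6, 10.3 and 12.3 CPM in K700E/+ libraries, against 27.3, 47.4 and 52.0 CPM in +/+ libraries, a log2 fold change of -1.94. Mxd3, of the same family, had a log2 fold change of -0.79. In all, 2 of 11 tested genes of the network were called higher and 4 lower, against 21.3% and 23.1% of all genes. With the replicate block or without replicate 1 in both genotypes 4 of the network were called higher. Of all genes, 25.3% were called higher without replicate 1 in both genotypes, and the share with the block is not given here. Mycn and Mycl had no read. Of 12 genes known as MYC targets, a list chosen with earlier results of these data known, 11 were called higher and none lower. Among all genes these shares were 21.3% and 23.1%. The median log2 fold change was 0.46 over the 12 targets. The largest of these were Odc1, for polyamine synthesis (0.85), Ldha, for lactate production (0.82), and Fbl and Nop56, for ribosomal RNA modification (0.75 and 0.58), and Npm1 was the target not called.

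**Figure D3:**
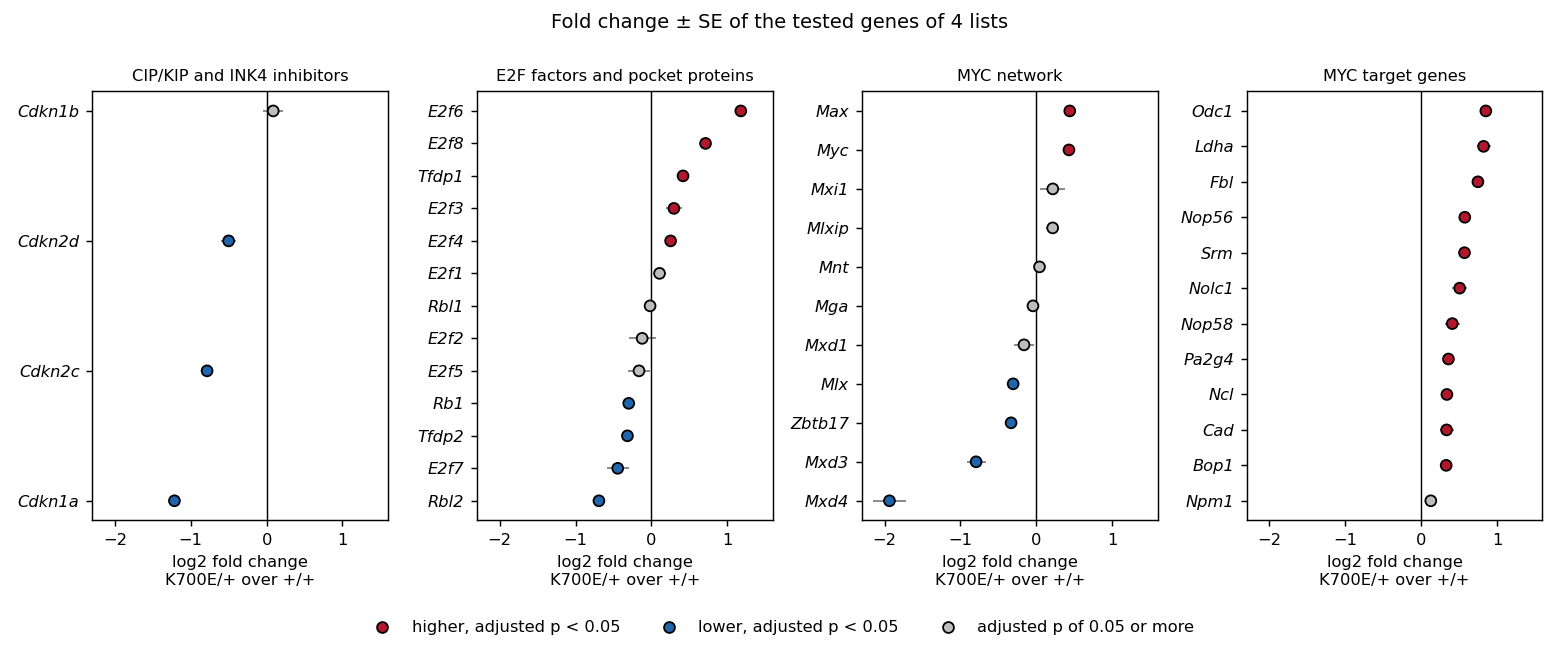
Log2 fold change of K700E/+ over +/+ with its SE for the tested genes of 4 lists, ordered by value within each list. The CIP/KIP and INK4 inhibitors other than Cdkn1b lie left of 0, the MYC targets lie right of 0, and Mxd4, at -1.94, is the gene farthest left.

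Genes of mitosis and the wider cell cycle were also counted. Of 14 mitotic genes, 4 were called higher, among them Mki67, a proliferation marker (log2 fold change 0.88), the mitotic kinase gene Plk1 (0.36) and the checkpoint kinase gene Bub1 (0.24), and Kif20a was called lower (-0.34). Without +/+ replicate 1, 7 of them were called higher and 1 lower, with the replicate block 6 higher and 2 lower, without K700E/+ replicate 2 only 2 higher and 1 lower, and without +/+ replicate 3 it was 2 higher and 2 lower. The call of Bub1 was lost in those last 2 fits. Of all genes, 21.3% were called higher and 23.1% lower in the main fit, and the shares in the other fits are not given here. The KEGG cell cycle set that the study used has 125 human symbols, of which 122 were matched to the mouse table without regard to case and 112 were tested. In this set 30 genes were called higher and 21 lower, 26.8% and 18.8%, near the 21.3% and 23.1% of all tested genes. The calls of the set with the lowest adjusted p were Cdkn1a, Cdkn2c, Bub3 (log2 fold change 0.66) and Anapc2 (-0.88). The KEGG set holds all 10 genes described here.

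**Figure D4:**
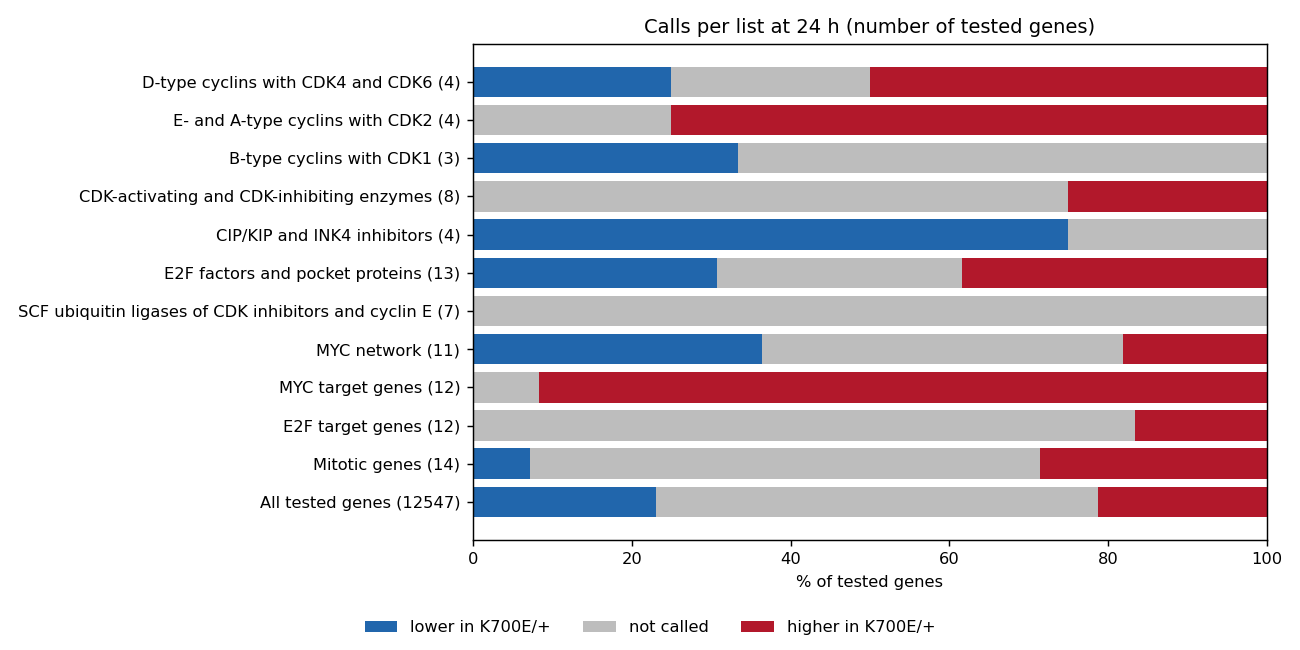
Percent of tested genes called lower (blue), not called (grey) and called higher (red) in K700E/+ cells, for 11 lists and for all tested genes, with the number of tested genes in parentheses. The MYC targets had 11 of 12 genes called higher and the inhibitors 3 of 4 called lower, against 21.3% called higher and 23.1% lower among all genes.

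Splicing was read from events with a longer and a shorter path, whose balance is the percent spliced in (PSI), here the share of the longer path from 0 to 1. Of the 10 genes, 5 had an event in the table, 6 events in all, and all 6 reached the minimum of 10 reads per library over both paths. No event of Ccnd2, Ccne1, Ccna2, Ccnb1 or Cdkn2d was listed. None of the 6 passed an adjusted p of 0.05 with a PSI difference over 0.10, which 6.31% of 17656 tested events did (2.17% with higher and 4.14% with lower PSI). At an unadjusted p under 0.05, edgeR gave 2 of the 6 and limma on logit PSI gave none. For the 4 retained introns, 6.34% of 5706 such events were called, 5.49% with lower PSI. When the reads at the 2 boundaries of a longer path were balanced, again 0 of the 6 were called, against 5.55% of all events, and 5.17% of retained introns, 4.54% with lower PSI.

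The largest difference was in Ccnd3, in a stretch of 1204 nt (chr17:47907101-47908383 in GRCm39, plus strand, with flanks). PSI was 0.419, 0.548 and 0.384 in K700E/+ libraries, against 0.562, 0.582 and 0.587 in +/+ libraries. All K700E/+ libraries were lower, though replicate 2 came close to the +/+ libraries. The difference was -0.127 (means 0.450 ± 0.0860 in K700E/+ and 0.577 ± 0.0136 in +/+, SD, n = 3 each) with an adjusted p of 0.0544 in edgeR, resting on 160 reads of the spliced path in K700E/+ and 85 in +/+. It was called with the replicate number as a block (adjusted p = 0.0120) and without K700E/+ replicate 2 (difference -0.175, adjusted p = 0.0160), but not without replicate 1 in both genotypes (-0.119, adjusted p = 0.206). By length, the spliced path matches an intron of 1 GENCODE M21 transcript whose first exon lies inside a longer intron of 2470 nt with the same acceptor. Reads of the longer path can therefore come from that longer intron too, and the event need not measure retention in the main Ccnd3 transcript.

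The second Ccnd3 event, of 465 nt, used an acceptor that M21 does not list, 42 nt inside the exon that follows a 423-nt intron. PSI was 0.981 to 0.987 in K700E/+ and 0.981 to 0.994 in +/+, with 12 reads of the shorter path in K700E/+ and 7 in +/+, and most reads of the longer path crossed a boundary inside an ordinary exon. At this depth no difference could be detected (adjusted p = 0.833). With balanced boundary reads PSI was 0.651, 0.738 and 0.586 in K700E/+ libraries, against 0.729, 0.612 and 0.931 in +/+ libraries, overlapping again (adjusted p = 0.566). Cdkn1b had an event of 2160 nt (chr6:134899006-134901245 in GRCm39, plus strand). It is an intron after the coding sequence that an exon of 1 of its 3 annotated transcripts spans. Its PSI was 0.162, 0.172 and 0.2005 in K700E/+ libraries, against 0.226, 0.207 and 0.228 in +/+ libraries. The genotypes did not overlap, but the difference of -0.042 had an adjusted p of 0.1995.

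Cdkn2c, whose level fell, had a 452-nt event before its coding sequence (chr4:109522315-109522846 in GRCm39, minus strand). PSI was 0.150, 0.173 and 0.145 in K700E/+ libraries, against 0.197, 0.191 and 0.184 in +/+ libraries. All K700E/+ libraries were lower, by -0.035 on average, with an adjusted p of 0.259. The proximal start of Cdkn2c, whose upstream window is printed above in GRCm38.p6, lies 237 nt into this intron and 215 nt before its acceptor. Transcripts that begin there add reads to the longer path, so in this PSI retention and start use cannot be told apart. With balanced boundary reads the difference was -0.020 (adjusted p = 0.498 in edgeR), and all K700E/+ libraries were again lower. Reads inside the intron still count there, so start use is not removed.

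**Figure D5:**
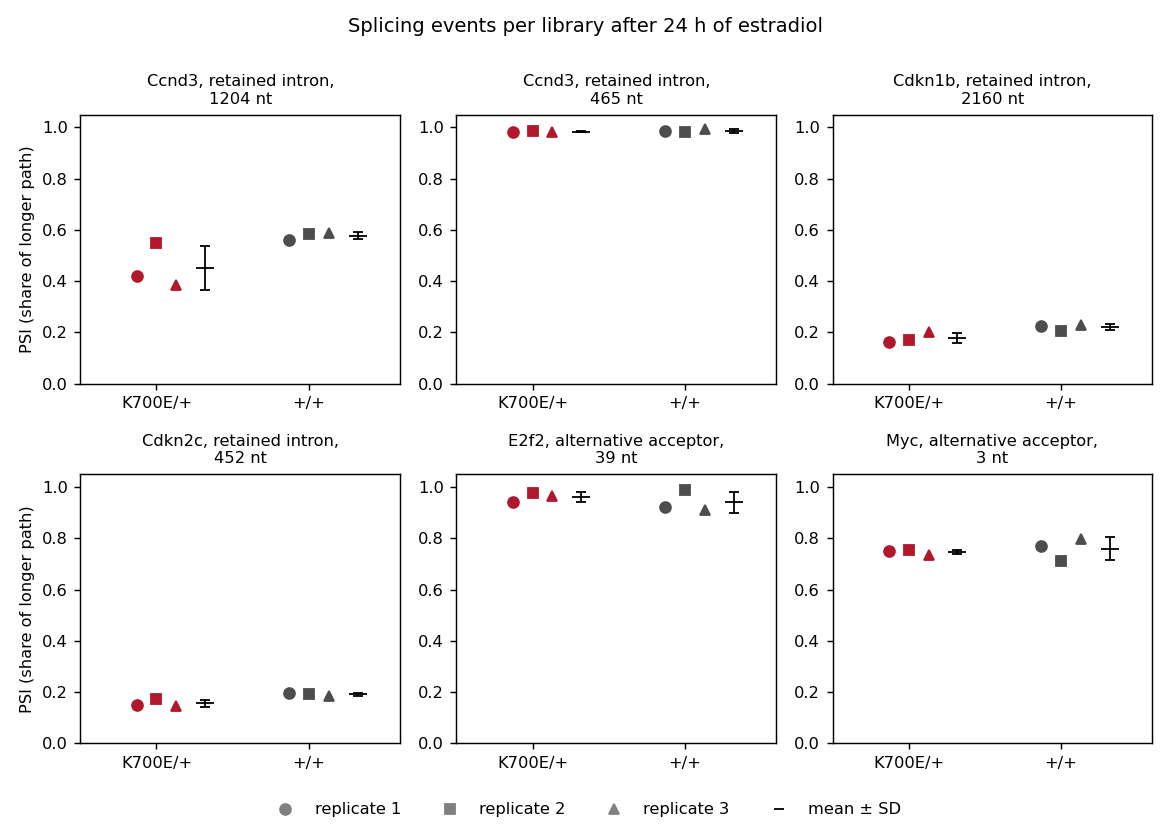
PSI (share of the longer path, from 0 to 1) of the 6 events in each library, K700E/+ on the left and +/+ on the right, with the mean ± SD beside the points (n = 3). In the 1204-nt Ccnd3 event, in Cdkn1b and in Cdkn2c all K700E/+ points lie below all +/+ points, by -0.127, -0.042 and -0.035 on average.

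The remaining 2 events were alternative acceptors, the kind of site that SF3B1, as part of the U2 particle, helps to choose at the branch point. Of 3010 tested alternative acceptors, 10.5% were called. The junctions of both are shown with 15 bases before each junction, to make clear what the paths add. They come from GENCODE M21 transcripts, except the shorter E2f2 path. That path is in no M21 transcript and was built by removing the 39 variable bases from the longer path. The capitals mark the bases that only the longer path holds.
Myc, longer path: gcgttggaaaccccgCAGacagccacgacg
Myc, shorter path: gcgttggaaaccccgacagccacgacgatg
E2f2, longer path: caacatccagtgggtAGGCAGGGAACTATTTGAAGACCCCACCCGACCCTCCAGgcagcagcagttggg
E2f2, shorter path: caacatccagtgggtgcagcagcagttggg
In Myc (chr15:61857760-61859398 in GRCm39, plus strand) the acceptors lie 3 nt apart and both are annotated, with introns of 1555 and 1558 nt. PSI was 0.750, 0.753 and 0.736 in K700E/+ libraries, against 0.771, 0.710 and 0.796 in +/+ libraries. The K700E/+ libraries lay within the range of the +/+ libraries, and the difference of -0.013 had an adjusted p of 0.868. In E2f2 (chr4:135907848-135908676 in GRCm39, plus strand) the shorter path uses an acceptor that M21 does not list, 39 nt into a coding exon. This length keeps the reading frame. PSI was 0.941, 0.976 and 0.966 in K700E/+ libraries, against 0.921, 0.987 and 0.911 in +/+ libraries. The libraries overlapped, with 22 reads of the shorter path in K700E/+ and 27 in +/+, and the difference of 0.022 had an adjusted p of 0.574.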

How the data were processed

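The submitters' processing notes name STAR 2.7.9 and GRCm39, and the table the authors deposited holds whole, unnormalized counts of reads for each gene. The counting annotation and strand are not given in the sources used here. They deposited event reads from KisSplice, and DESeq2 1.30.1 is named for their comparisons, not used here.

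In R 4.3.3, counts from the 6 libraries were tested with edgeR 4.0.16 (filterByExpr, TMM, quasi-likelihood F test, Benjamini-Hochberg over 12547 genes). For events, reads of each path were divided by path length to give PSI, and path by genotype was tested in edgeR where no library had under 10 reads. PSI so computed from the authors' reads correlated with the deposited PSI at 0.983 over 111044 values, but 13.4% of them lay within 0.01 of it. With reads balanced over both boundaries the correlation was 0.998 and 84.9% lay within 0.01, so the deposited PSI follows that rule more closely. Steps were tested on simulated data. Alternatives were RLE scaling, no filter, DESeq2 1.42.0, limma 3.58.1 on logit PSI, coverage of 5 or 20 reads, a PSI threshold of 0.20, reads balanced over both boundaries, a replicate block and left-out libraries.

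Same-numbered libraries deviated together from their genotype means (correlations 0.64, 0.49 and 0.48 over 8771 genes). Between numbers 2 and 3 the correlations across genotypes were also positive (0.21 and 0.25), and between number 1 and the others negative (-0.51 to -0.44). The main fits did not pair the libraries. Replicate numbers came from the sample titles, which do not say that same-numbered libraries share an experiment. Pairing by number is seen only in these correlations and entered a test only as the replicate block. The members and gene lists were chosen with earlier results of these data known. Named were all 10 genes, their tested events, and up to 4 called genes per list with the lowest adjusted p, plus Bysl, Exosc9, copies, undetected relatives, Skp2, Fbxw7 and Npm1, chosen after their values were seen.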

Additional observations from a re-analysis of the deposited data

How the results depend on the processing

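The 2 lower calls, Cdkn2c and Cdkn2d, and the higher calls of Ccne1 and Myc held under each of 11 alternatives. The count of genes called higher was 4, and 2 to 6 when libraries were left out. The other calls that changed were as follows. Ccnd2 (0.16 to 0.21 on the log2 scale over fits without a library) and Ccna2 (0.23 to 0.35) lost the call in 5 and 3 such fits. Ccnd3 was called with DESeq2 (0.21), with no filter on low counts (0.21), with the replicate block (0.20) and in some fits without a library (0.16 to 0.26). Ccnb1 was called with the replicate block (0.17) and in some fits without a library (0.15 to 0.24). The sign of the uncalled Cdkn1b (-0.019 to 0.26) and E2f2 (-0.27 to 0.087) turned when libraries were left out. With the replicate block 1 event of the 10 genes was called, the 1204-nt Ccnd3 event (PSI difference -0.127), and 0 to 1 when libraries were left out (-0.175 to -0.094). The uncalled 465-nt Ccnd3 event (-0.0059 to 0.00065) and the Myc event (-0.037 to 0.0056) changed sign there. Of all events, 468 were called at a PSI threshold of 0.20 and 556 with limma, against 1114. Of 396 counts per list, direction and alternative, 343 stayed within 1.5 times of the count given. Without replicate 1 in both genotypes, a setting chosen after seeing the data, Ccnd3 (0.30) and Ccnb1 (0.26) were called too. The causes were not tested.

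The block changed no other call of the 10 genes. With 3 libraries per genotype, small differences such as that of Cdkn1b are bounded only by their intervals, and events with few reads of one path, such as those of E2f2 and the 465-nt stretch of Ccnd3, are limited by depth.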
